A study of Mus musculus with 292 samples.

Results

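Fatty acid elongases lengthen a fatty acid by a pair of carbons, and fatty acid desaturases place a double bond in it. The 10 genes described here are Elovl1, Elovl2, Elovl3, Elovl4, Elovl5, Elovl7, Fads1, Fads2, Fads3 and Scd2. They were taken by symbol, and all 10 were matched to a row of the 48795 genes counted in each library. The mice were C57BL/6J males of 26 weeks with no altered allele. RNA was sequenced from their cortex (78 libraries), striatum (60), hypothalamus (77) and liver (77), 292 libraries in all. Cortex and striatum came from the right hemisphere. Tissue was taken at 13 time points from 0 to 36 h, 3 h apart, which fold onto 8 groups of zeitgeber time (ZT, hours on the scale set by the light cycle). No other genotype or treatment was present, and the light schedule is not given in the sources used here. A group held 6 to 12 libraries, except in striatum, where ZT15 held 2 and ZT18 held 4. Time points past 21 h cover ZT0 to ZT12 only, so ZT15, ZT18 and ZT21 were each sampled on 1 cycle.

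Long-chain fatty acids enter this pathway from the diet or from synthesis. The delta-6 desaturase Fads2 and the delta-5 desaturase Fads1 act in turn on linoleic and alpha-linolenic acid, and Elovl5 and Elovl2 carry out the elongation steps between and after them, which leads to arachidonic acid and docosahexaenoic acid (DHA). Elovl1, Elovl3 and Elovl7 act mainly on saturated and monounsaturated chains, Elovl4 makes very long chains in neurons and retina, and Scd2 makes monounsaturated fatty acids and is the main stearoyl-CoA desaturase of brain. Liver exports much of what it makes as lipoprotein, whereas brain uses these acids in neuronal membranes and myelin.

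Library totals ran from 11.7 to 50.01 M counts (M, mega). Values by library are in CPM, counts per M of the library total, scaled by the trimmed mean of M-values (TMM). Summed markers of 4 hepatocyte genes lay between 72832 and 143147 CPM in 76 liver libraries and at most at 109 CPM in the brain libraries. Marker sums were less even among brain libraries. The 5 markers of striatal projection neurons summed to between 53.6 and 5739 CPM in 58 striatum libraries, with a median of 1104. The same sum ran from 90.0 to 1096 CPM in 76 cortex libraries (median 624) and from 45.0 to 410 CPM in 75 hypothalamus libraries. These ranges overlap that of striatum. Choroid plexus markers ran from 8.57 to 21843 CPM in the 58 striatum libraries. The part of this uneven content in the striatum results was not tested. In all, 7 libraries stood apart by their markers or composition. Replicate 1 at ZT0 and replicate 9 at ZT9 of cortex had 10.01 and 18.6 CPM of cortical excitatory neuron markers, where 76 libraries of that tissue had 1157 to 1737 CPM. Replicate 4 at ZT18 of liver had 83.8% of its counts in 10 genes, against at most 25.4% in the other liver libraries. Calls of members that changed without these libraries are given beside the results. Fewer cells of a type and less RNA per cell cannot be told apart in these bulk samples.

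The members with the most RNA differed in part between liver and brain, while Fads2, Fads1 and Elovl5 were among the higher ones in both. On the deposited FPKM scale (counts scaled by library total and gene length, which allows levels of different genes to be compared), the highest medians in liver were those of Fads2 at 233 FPKM, Elovl3 at 180, Fads1 at 150, Elovl5 at 140 and Elovl2 at 133. In the same 77 libraries Elovl1 had a median of 17.6 FPKM, Scd2 of 1.78, Fads3 of 1.15 and Elovl7 of 0.0911. In brain the order was different. Scd2 had the highest median in each region, of 288, 358 and 436 FPKM in cortex, striatum and hypothalamus. Fads2 and Fads1 came next (48.4 and 61.9 FPKM in cortex, 73.9 and 63.2 in striatum, 106 and 76.1 in hypothalamus), and Elovl5 followed with 20.7, 35.03 and 31.6 FPKM in the same order of regions. Elovl4 lay near these, with medians of 19.1, 17.05 and 17.4 FPKM. Elovl2, the elongase of the last elongation step towards DHA, had medians of 4.35, 3.86 and 3.34 FPKM.

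**Figure D1:**
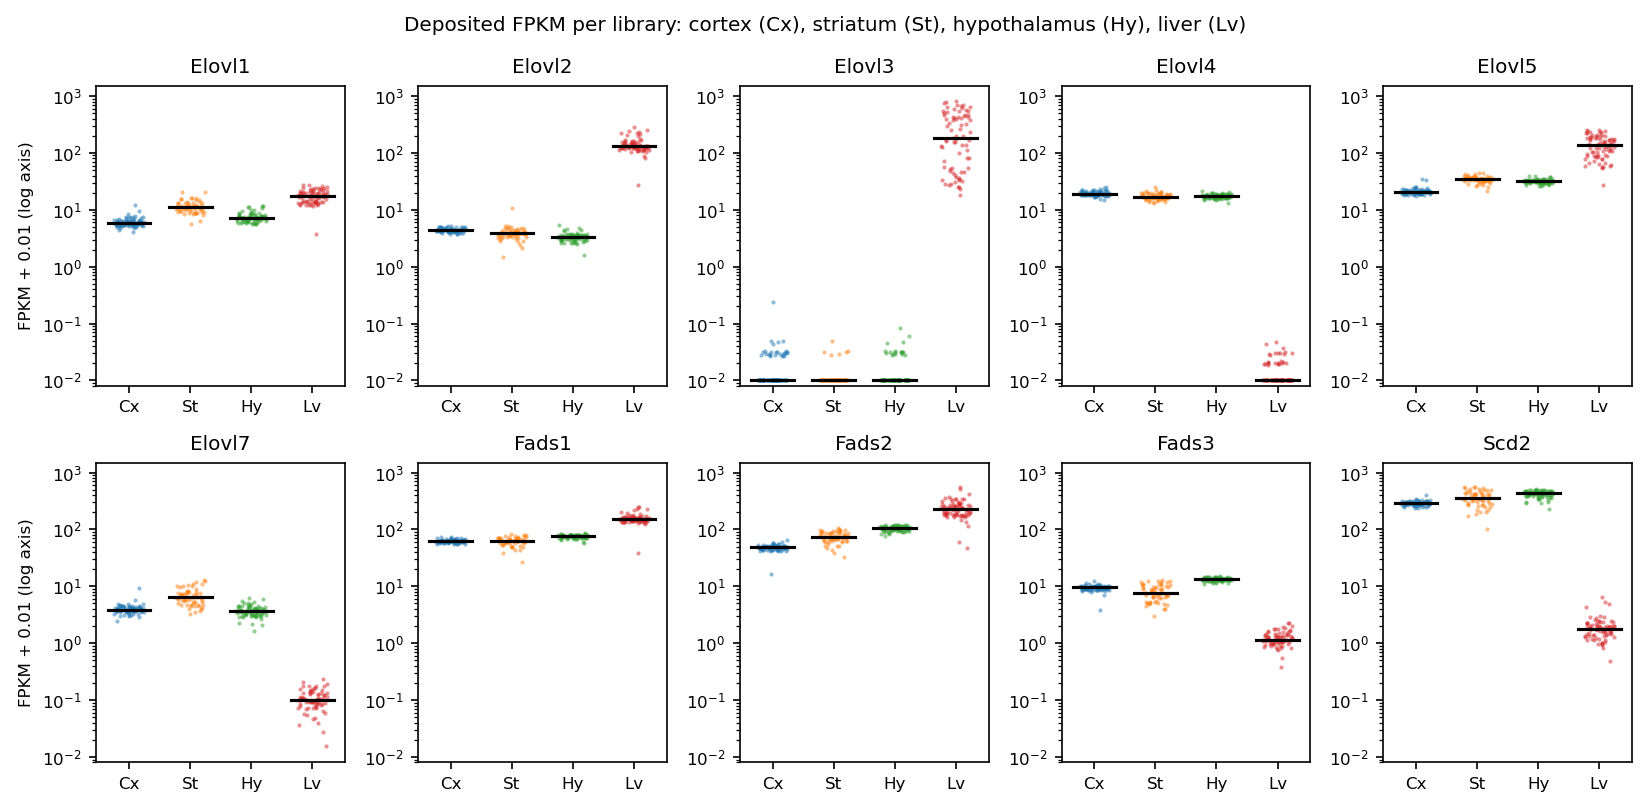
Deposited FPKM of the 10 genes in each library of cortex, striatum, hypothalamus and liver, on a log axis after adding 0.01, with the median of each tissue as a black bar. Elovl3 lies at or near 0 in brain and Elovl4 at or near 0 in liver, while Scd2 has a median of 436 FPKM in hypothalamus and 1.78 in liver.

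All 10 members differed between liver and each brain region, where nearly all genes did. Across all genes tested between cortex and liver, 44.2% were called higher in liver and 52.5% higher in cortex (edgeR quasi-likelihood test with ZT as a factor, Benjamini-Hochberg adjusted p under 0.05). The 10 members split 6 to 4, and the same 6 were higher in liver than in each of the 3 brain regions, namely Elovl1, Elovl2, Elovl3, Elovl5, Fads1 and Fads2. Between striatum and liver 45.1% of genes were called higher in liver and 49.7% higher in striatum, and between hypothalamus and liver 44.3% and 51.9%. Elovl2 showed a log2 difference of 5.94 ± 0.04 (SE, n = 155 libraries), that is 61.3-fold higher in liver than in cortex (edgeR adjusted p = 1.2e-156). Elovl5 was 11.9-fold higher in liver than in cortex, Fads2 9.29-fold, Elovl1 5.48-fold and Fads1 4.83-fold. Scd2 went the other way by -6.34 ± 0.06 on the log2 scale, Elovl7 by -4.41 ± 0.07 and Fads3 by -2.01 ± 0.04. Scaling by library totals alone, without TMM, shifted the log2 difference of all genes between cortex and liver by -0.95 in the median, between striatum and liver by -1.07 and between hypothalamus and liver by -1.13, and DESeq2 size factors shifted it by -0.19, -0.25 and -0.25. No member changed direction between liver and brain under either scaling.

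Elovl3 and Elovl4 marked the extremes. Elovl3 is the elongase known from liver, brown fat and skin glands. It had 1044726 counts over the 77 liver libraries and 41 over the 78 cortex libraries, 53 of which had none. Relative to library totals, the ratio of liver over cortex was 26189 (95% exact interval 19304 to 36494, for counting error only). In striatum Elovl3 had 7 counts in all and in hypothalamus 25. Elovl4 was the reverse, with 153974, 106659 and 139467 counts in the 3 brain regions in the order above and 40 in liver, where 52 of 77 libraries had none. For Elovl4 the same kind of ratio, of cortex over liver, was 3745 (interval 2750 to 5243). Neither gene passed the filter on low counts in the tissue where it was near 0, so no rhythm was tested there.

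Among brain regions the differences were smaller. Between cortex and hypothalamus all 9 tested members differed, 6 of them higher in hypothalamus, where 43.8% of genes were called higher in cortex and 46.2% higher in hypothalamus. Fads2 was 1.92-fold higher in hypothalamus than in cortex (log2 0.94 ± 0.03, SE, n = 155, adjusted p = 2.3e-70), and Elovl2 was lower there by 0.58 ± 0.03 (log2 difference -0.58). Between cortex and striatum 8 of 9 members were called (5 higher in striatum), against 40% of genes higher in cortex and 46.6% higher in striatum. Elovl1 was 1.88-fold, Elovl7 1.67-fold and Elovl5 1.61-fold higher in striatum than in cortex. The summed oligodendrocyte markers had a median of 13515 CPM in 58 striatum libraries and of 4981 CPM in 76 cortex libraries, and their part in these differences was not tested. Fads1 was not called there, with a log2 difference of -0.04 ± 0.02 (adjusted p = 0.080), and it was called with DESeq2 size factors (adjusted p = 0.035) and with no filter on low counts (0.020). Between striatum and hypothalamus 8 of 9 members were called (5 higher in striatum), against 41.9% of genes higher in striatum and 35.2% higher in hypothalamus. Elovl7 was lower in hypothalamus than in striatum by 1.03 on the log2 scale (log2 difference -1.03 ± 0.06). Scd2 was not called between them (log2 0.09 ± 0.04, adjusted p = 0.054), but was called when tissues of the same mouse were paired (adjusted p = 0.013), without TMM (0.00018) and with DESeq2 size factors (0.024). Elovl4, with a log2 difference of -0.16 ± 0.03, changed sign without TMM (log2 0.0060, adjusted p = 0.84), a setting that shifted all genes by 0.16.

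In liver all 9 members that passed the filter on low counts were called rhythmic over 24 h (cosine fit, edgeR quasi-likelihood test). Rhythms were common in this tissue. Of the 16159 genes tested in liver, 72.8% were called, so the count of 9 of 9 lies near that background. The sizes of the 9 rhythms had a median log2 peak-to-trough ratio of 0.84, against 0.38 over all tested genes. Of the 9, 7 were called with a fitted ratio of at least 1.5-fold, as were 27.9% of all tested genes. The members did not peak together. Elovl1, Elovl3, Elovl7, Fads3 and Scd2 peaked between ZT20.0 and ZT23.4, Elovl5 at ZT1.65, Elovl2 at ZT5.69, and Fads2 and Fads1 at ZT12.9 and ZT13.7. Among all tested liver genes, 37.9% were called with a peak before ZT12 and 34.9% with a later one.

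**Figure D2:**
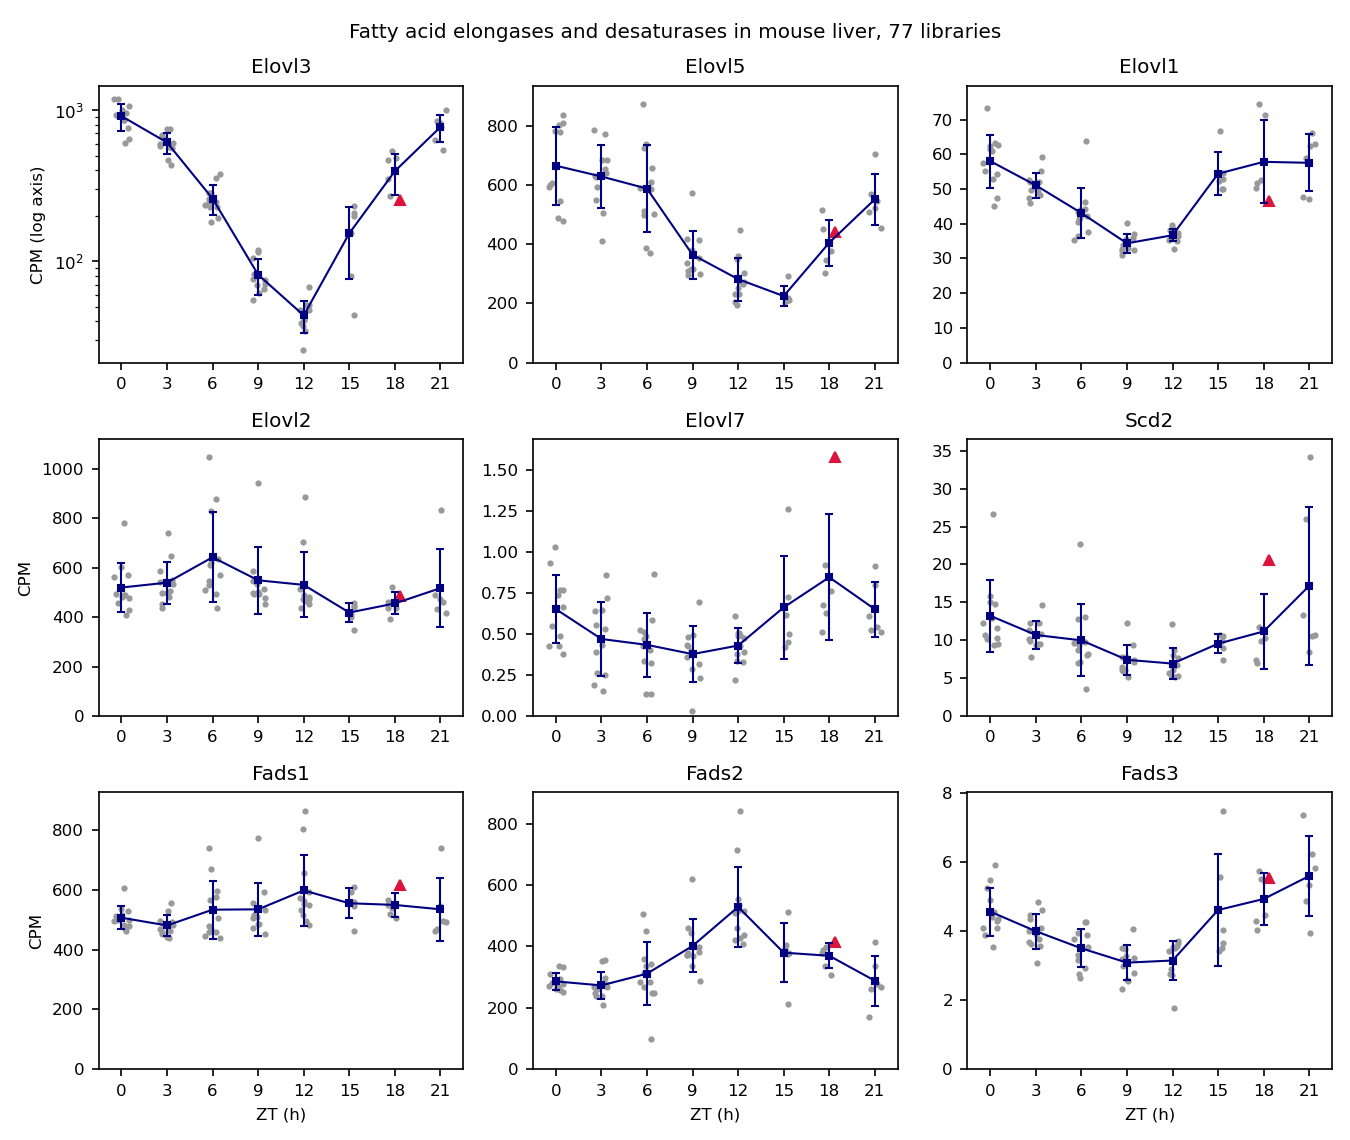
TMM-scaled CPM of 9 members in 77 liver libraries by ZT (grey points, spread sideways for view), with the mean and SD of each ZT group in blue and the library that stood apart, replicate 4 at ZT18, as a red triangle. The axis of Elovl3 is logarithmic. Its mean falls from 912 CPM at ZT0 to 43.7 at ZT12, while that of Fads2 rises from 273 at ZT3 to 528 at ZT12.

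Elovl3 had the widest swing of the 9. Its 12 libraries at ZT0 ranged from 602 to 1191 CPM with a median of 919. At ZT12 the 12 libraries ranged from 25.8 to 67.6 CPM with a median of 41.6. The groups were far apart, and the means differed 20.9-fold (912 ± 184 and 43.7 ± 10.5, SD). Levels fell at each step from ZT0 through ZT3 (mean 610 CPM), ZT6 (259) and ZT9 (81.3) and rose again through ZT15 (153), ZT18 (394) and ZT21 (771). At ZT15 the spread was wide, from 43.7 to 233 CPM over 6 libraries. The fitted log2 ratio was 4.14 ± 0.15 (SE, n = 77), or 17.6-fold, with a peak at ZT23.4 ± 0.15 h (edgeR adjusted p = 9.3e-36). Both cycles showed it, with means of 873 ± 125 and 951 ± 236 CPM at 0 and 24 h and of 45.2 ± 12.5 and 42.2 ± 8.99 CPM at 12 and 36 h (SD, n = 6 each).

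By Pearson correlation of log2 CPM over the 77 liver libraries, genes most like Elovl3 were Dtx4 (r = 0.97), Clpx (0.96), Tubb2a (0.95) and Pnkd (0.94). They were chosen from 11417 genes for this likeness, so the values are a description. Their fitted peaks lay between ZT22.5 and ZT23.6, and their fitted ratios ran from 4.46-fold for Pnkd to 11.8-fold for the tubulin Tubb2a.

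Elovl5, which elongates polyunsaturated C18 and C20 chains, was high from ZT21 to ZT6. Its CPM ranged from 478 to 838 at ZT0 (median 636, 12 libraries) and from 204 to 293 at ZT15 (median 212, 6 libraries). No library at ZT15 reached the lowest at ZT0. The fitted log2 ratio was 1.41 ± 0.10 (2.66-fold) with a peak at ZT1.65 ± 0.29 h (adjusted p = 2.0e-20). Elovl2, which extends C20 and C22 polyunsaturated chains, moved less. It ranged from 436 to 1048 CPM at ZT6 (median 591) and from 350 to 459 CPM at ZT15 (median 428), and these groups overlapped. Its fitted log2 ratio was 0.41 ± 0.10 with a peak at ZT5.69 ± 0.84 h (adjusted p = 0.001).

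The desaturases of the same route peaked in the other part of the cycle. Fads2 was lowest at ZT3, from 207 to 355 CPM (median 265), and highest at ZT12, from 409 to 843 CPM (median 512). These 12 and 12 libraries did not overlap. Its fitted log2 ratio was 0.84 ± 0.11 (1.79-fold) with a peak at ZT12.9 ± 0.53 h (adjusted p = 2.1e-10). At ZT6 replicate 7 had 97.4 CPM of Fads2, below all other liver libraries. Fads1 ranged from 439 to 555 CPM at ZT3 (median 477) and from 483 to 867 CPM at ZT12 (median 557), with overlap. The Fads1 rhythm was small (log2 0.24 ± 0.06, peak ZT13.7 ± 1.09 h, adjusted p = 0.0024) and was not called without TMM (adjusted p = 0.19), in the first cycle alone (0.15) or on the FPKM scale (0.29 with a pseudocount of 0.1).

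Ratios of raw counts within a library need no scaling. The ratio of Elovl5 to Fads2 counts had a median of 2.29 at ZT0 (1.83 to 2.90 over 12 libraries) and of 0.51 at ZT12 (0.42 to 0.65). It returned to 1.84 at ZT21 (1.56 to 2.98). The ZT0 and ZT12 groups did not overlap. The ratio of Elovl3 to Fads2 counts had a median of 3.19 at ZT0 and of 0.087 at ZT12, again without overlap. Fads1 over Fads2 moved less, from a median of 1.83 at ZT3 to 1.14 at ZT12.

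Elovl1, which makes saturated C22 to C26 chains for sphingolipids, ranged from 45.2 to 73.2 CPM at ZT0 (median 59.2) and from 31.1 to 40.3 CPM at ZT9 (median 34.0), without overlap. The fitted log2 ratio was 0.79 ± 0.06 (1.72-fold), with a peak at ZT21.4 ± 0.31 h (adjusted p = 3.8e-18). Elovl1, Elovl3, Elovl5 and Fads2 were the 4 of 9 members whose highest and lowest ZT groups did not overlap in liver, and 27.3% of all tested genes met that condition. Scd2, Fads3 and Elovl7 were low in this tissue. Scd2 ranged from 8.46 to 34.1 CPM at ZT21 (median 12.0) and from 5.13 to 12.1 CPM at ZT12 (median 6.22), with a fitted log2 ratio of 0.999 ± 0.147 and a peak at ZT22.5 ± 0.61 h (adjusted p = 3.9e-08). Up to 3.97% of the 50-base stretches of Scd2 transcripts also occur in Scd1, Scd3, Scd4 or other genes, and Scd1 had a mean of 10014 CPM in liver, so these low Scd2 counts are uncertain. Fads3, whose product acts on sphingoid bases, ranged from 3.95 to 7.36 CPM at ZT21 and from 2.33 to 4.05 CPM at ZT9, and peaked at ZT20.7 ± 0.43 h (log2 0.77 ± 0.09, adjusted p = 1.3e-11). Elovl7 reached at most 1.58 CPM in the 77 libraries, in replicate 4 at ZT18, the library that stood apart. The Elovl7 rhythm had a fitted size of 0.94 ± 0.19 (log2) with the maximum at ZT20.0 ± 0.74 h (adjusted p = 7.5e-05).

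**Figure D3:**
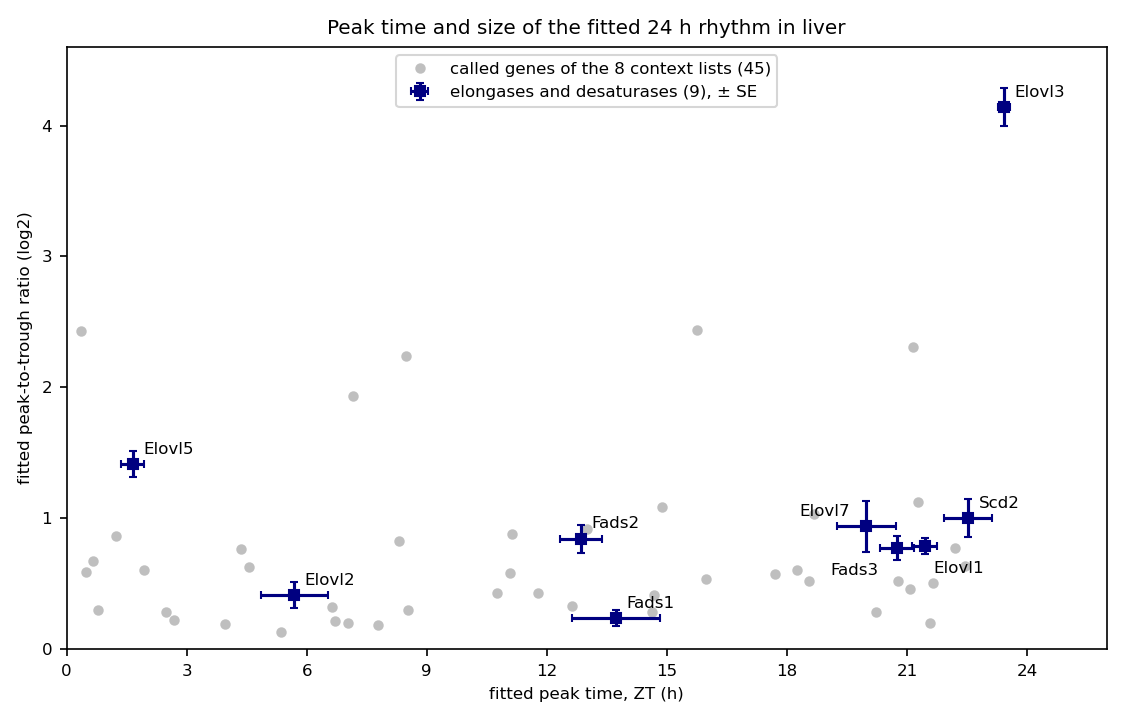
Fitted peak time (ZT, in hours) and fitted log2 peak-to-trough ratio in liver for the 9 tested members (blue squares, bars ± SE) and for the 45 called genes of 8 lists of related genes (grey points). Elovl3 lies alone at a log2 ratio of 4.14, Fads1 and Fads2 peak at ZT13.7 and ZT12.9, and 5 members peak between ZT20.0 and ZT23.4.

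The 2 cycles were compared gene by gene. Compared at ZT0 to ZT12, 0 of 9 members and 0 of 15604 genes in liver were called (59 libraries, edgeR, adjusted over all genes). At an unadjusted p under 0.05 there were 1 member, Fads3 (log2 0.12 ± 0.06), and 1100 genes, and 0 genes were called without TMM or without the filter as well. In hypothalamus likewise 0 of 9 members and 0 of 19696 genes were called, with 0 members and 1179 genes at an unadjusted p under 0.05. In cortex 6.82% of genes and 1 of 9 members were called between cycles. That member was Fads1, with a mean of 225 ± 14.6 CPM in the first and 208 ± 10.8 in the second cycle (SD, n = 30 each; log2 difference -0.11 ± 0.02, adjusted p = 0.0027). Without the 2 cortex libraries that stood apart, Elovl2 (log2 0.07, adjusted p = 0.036) and Fads3 (log2 -0.09, adjusted p = 0.038) were called as well, and the count over all genes went from 1290 to 3076. In striatum 2.92% of genes were called. Among them was Fads3, with 22.7 ± 6.66 and 29.1 ± 9.07 CPM (n = 22 and 26, log2 0.42 ± 0.12, adjusted p = 0.045), a call that was lost without the libraries that stood apart (adjusted p = 0.072), without TMM (0.10) and with no filter on low counts (0.069).

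Some members varied together among liver libraries of the same ZT. After the mean of each ZT group was removed from log2 CPM, 14 of the 36 pairs among the 9 liver members correlated over 77 libraries (two-sided permutation of libraries within ZT, Benjamini-Hochberg adjusted over 36 pairs). Without the library that stood apart, 16 of 36 pairs did, with Elovl1 and Fads3 (r = 0.28, rho = 0.31, adjusted permutation p = 0.038 and 0.027) and Elovl7 and Fads1 (r = -0.30, rho = -0.17, adjusted permutation p = 0.030 and 0.25) added. By Spearman rho 15 of the 36 pairs were called over 77 libraries. These pairs were examined after the rhythms were known. The share of pairs over all liver genes that correlate in this way was not computed, so the count is a description. Values of 1 library also share its scaling. Elovl2, Elovl5, Fads1, Fads2 and Scd2 all correlated positively with each other, which gives 10 of the 14 pairs, 4 of them with the uncertain Scd2 counts. The other 4 pairs were negative, between Fads3 and each of Elovl2, Elovl5, Fads1 and Fads2. The highest was Elovl2 with Fads1, with r = 0.82 and Spearman rho = 0.70 (adjusted permutation p = 4.5e-05 and 7.2e-05, both from the smallest p that 100000 permutations can give), and r = 0.76 without the 2 farthest libraries. Elovl5 with Fads1 had r = 0.72 and rho = 0.69 (adjusted permutation p = 4.5e-05 and 7.2e-05, r = 0.66 without the 2 farthest). Elovl5 and Fads2, which peaked in opposite parts of the cycle, had r = 0.47 and rho = 0.50 within ZT (adjusted permutation p = 0.00021 and 0.00018), and r = 0.38 without the 2 farthest. Elovl3 correlated with no other member by this test, and its r ranged from -0.17 to 0.11. At an unadjusted permutation p under 0.05 it also had none.

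The 3 desaturase genes Fads3, Fads2 and Fads1 lie side by side on chromosome 19 (GRCm38). Fads3 occupies 10041569 to 10060110 on the plus strand, Fads2 10062765 to 10101746 on the minus strand and Fads1 10182888 to 10196877 on the plus strand. The gap between Fads3 and Fads2, whose 3′ ends face each other, is 2654 bases, and that between Fads2 and Fads1, whose 5′ ends face each other, is 81141 bases. No exonic base of the 3 genes is shared in the GENCODE annotation. In liver Fads1 and Fads2 peaked near each other, and Fads3 peaked at ZT20.7. Within ZT, Fads1 and Fads2 had r = 0.63 and rho = 0.69 (adjusted permutation p = 4.5e-05 and 7.2e-05, r = 0.56 without the 2 farthest libraries). Fads3 correlated negatively with both, and also with Elovl2 (r = -0.60, rho = -0.53, adjusted permutation p = 4.5e-05 and 0.0001) and Elovl5 (r = -0.40, rho = -0.37, adjusted permutation p = 0.001 and 0.0045), which lie on other chromosomes. With Fads2 it had r = -0.60 and rho = -0.52 (adjusted permutation p = 4.5e-05 and 0.0001, r = -0.58 without the 2 farthest). With Fads1 it had r = -0.52 and rho = -0.42 (adjusted permutation p = 0.00014 and 0.0011, r = -0.44 without the 2 farthest). Markers of bile duct cells moved with some members by Pearson's r. The sum of Krt19 and Epcam, at most 7.27 CPM in 76 liver libraries, had r = 0.41 and rho = 0.34 with Fads3 and r = -0.42 and rho = -0.25 with Fads2 within ZT (adjusted permutation p over 36 relations 0.0018 and 0.0018 for r, 0.064 and 0.25 for rho). The same sum had r = -0.40 with Elovl2 and r = -0.39 with Scd2 (adjusted permutation p = 0.0018 and 0.015 for r, rho = -0.20 and -0.15 with adjusted permutation p = 0.43 and 0.60). With Fads1 it had r = -0.27 and rho = -0.11 (adjusted permutation p = 0.072 and 0.66). Endothelial markers had r = 0.41 and rho = 0.38 with Scd2 (adjusted permutation p = 0.0042 and 0.054). The part of these cells in the correlations among members was not tested. With the summed hepatocyte markers Fads3 had r = -0.15 and Fads2 r = -0.20 (adjusted permutation p = 0.33 and 0.33).

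Promoters of the members were read from RefSeq windows on GRCm38.p6, of which the 250 bases before the annotated start are shown here. Windows were found for 7 of 10 members (Elovl1, Elovl2, Elovl4, Elovl5, Elovl7, Fads2 and Fads3), and Elovl1 and Elovl2 have 2 each, of which the first listed is printed. Printed are the windows of Elovl5, Elovl1 and Fads3, which peaked in liver between ZT20.7 and ZT1.65, and of Elovl2, which peaked at ZT5.69. That of Elovl7, which peaked at ZT20.0, is not printed, so the printed windows are not all those of a peak time. Capitals mark 3 motifs on either strand. The E-box is CACGTG, the letters read by the clock factors CLOCK and BMAL1. The second is the CCAAT box, named for its letters, which reads ATTGG on the other strand. The third is the GC box, GGGCGG, and its other strand reads CCGCCC.
Elovl5 (chr9:77917115-77917364, plus strand): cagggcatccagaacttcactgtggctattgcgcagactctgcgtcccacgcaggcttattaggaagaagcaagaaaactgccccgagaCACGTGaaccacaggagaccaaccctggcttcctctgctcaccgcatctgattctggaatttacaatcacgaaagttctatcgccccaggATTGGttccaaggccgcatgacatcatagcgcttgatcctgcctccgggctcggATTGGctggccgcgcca
Elovl1 (chr4:118427843-118428092, plus strand): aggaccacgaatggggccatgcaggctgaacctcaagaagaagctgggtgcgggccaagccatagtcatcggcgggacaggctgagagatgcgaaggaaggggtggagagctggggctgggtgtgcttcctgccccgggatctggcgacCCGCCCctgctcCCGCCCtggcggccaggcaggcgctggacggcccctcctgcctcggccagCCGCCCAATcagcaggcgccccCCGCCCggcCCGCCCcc
Fads3 (chr19:10041298-10041547, plus strand): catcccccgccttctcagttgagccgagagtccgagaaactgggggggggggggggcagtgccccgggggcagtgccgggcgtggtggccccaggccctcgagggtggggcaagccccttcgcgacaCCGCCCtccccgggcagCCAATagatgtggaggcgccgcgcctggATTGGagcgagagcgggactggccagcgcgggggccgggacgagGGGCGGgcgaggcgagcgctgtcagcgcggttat
Elovl2 (chr13:41220404-41220653, minus strand): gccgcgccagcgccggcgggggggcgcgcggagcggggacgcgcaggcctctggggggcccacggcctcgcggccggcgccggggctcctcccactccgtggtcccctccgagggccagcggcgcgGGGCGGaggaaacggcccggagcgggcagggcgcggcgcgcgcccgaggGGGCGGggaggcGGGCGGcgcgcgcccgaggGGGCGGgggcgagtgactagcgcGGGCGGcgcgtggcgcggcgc

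Elovl5 holds a CACGTG that begins 161 bases before the start, which 6.02% of 32851 promoter windows hold, and a pair of CCAAT boxes on the other strand, 71 and 17 bases before it. Elovl1 holds GC boxes 101, 89, 39, 17 and 8 bases before the start, and a CCAAT box at 35 that overlaps the GC box at 39. Fads3 holds CCAAT boxes 106 and 78 bases and GC boxes 123 and 34 bases before its start, and Elovl2 has 5 GC boxes and no CCAAT box. CCAAT stood in 33.8% of all windows on either strand and GGGCGG in 32.7%. The windows of Fads2, Elovl4 and Elovl7 hold GC boxes and neither of the other motifs, and of these genes Elovl7 peaked in liver at ZT20.0, near Fads3 and Elovl1. The D-box, the ROR element and direct repeats of AGGTCA spaced by 1 or 4 bases were searched on both strands and were in no window of the 7 genes. The second window of Elovl1 holds 2 GC boxes, 48 and 37 bases before its start, and a single AGGTCA on the other strand, and that of Elovl2 holds none of the 3 motifs. A match is a description of the letters in these windows.

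Genes that work beside the members were grouped into 8 lists. Of all tested liver genes 72.8% were called, 37.9% with a peak from ZT0 to ZT12 and 34.9% with a later one. The elongation cycle needs a ketoreductase, dehydratases and a reductase, and 3 of these 6 partners were called in liver, all with a peak from ZT0 to ZT12. Hsd17b12, the ketoreductase, peaked at ZT0.79 (log2 0.30 ± 0.04) and the dehydratase Hacd3 at ZT11.8 (log2 0.43 ± 0.04), and the dehydratase Hacd4, low at a mean of 1.29 CPM, at ZT4.36 (log2 0.77 ± 0.15). Cytochrome b5 and its reductases pass electrons to desaturases. Of the 5 tested of 6, 4 were called, with Cyb5b at ZT0.67 (log2 0.67 ± 0.06), Cyb5r1 at ZT8.30 (0.82 ± 0.08), Cyb5r4 at ZT3.95 (0.19 ± 0.05) and Cyb5a at ZT12.6 (0.33 ± 0.09). The Cyb5a call was lost without TMM (adjusted p = 0.056) and in the first cycle alone (0.078).

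Among the other elongases and desaturases 3 of 4 tested genes were called in liver. Elovl6, which elongates palmitate, peaked at ZT14.9 (2.13-fold, log2 1.09 ± 0.16), near Fads1 and Fads2. Scd1, the main stearoyl-CoA desaturase of liver, peaked at ZT0.48 (log2 0.59 ± 0.12) and Degs1 at ZT2.69 (0.22 ± 0.05). Fatty acid synthesis had 7 of 8 called, 5 with a peak after ZT12. Thrsp peaked at ZT15.8 (5.42-fold), Acacb at ZT21.3 (2.18-fold), Acly at ZT22.2 (1.71-fold) and Acss2 at ZT1.24 (1.82-fold). The list of regulators had 12 of 12 called, 7 of them with a peak after ZT12. Over all tested liver genes the shares were 72.8% called and 34.9% called with a peak after ZT12. Insig2, which holds SREBP proteins in the endoplasmic reticulum, peaked at ZT0.37 (5.38-fold), Srebf2 at ZT22.4, Scap at ZT4.57 and the retinoid receptor Rxra at ZT10.8. Median log2 ratios were 0.82 for fatty acid synthesis and 0.55 for regulators, beside 0.38 for all tested liver genes.

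The acyl-CoA synthetases and acyltransferases had 7 of 8 called, with Acsl5 at ZT1.93, Acsl4 at ZT18.3, Acsl1 at ZT18.6 and the low Acsl6 (0.39 CPM) at ZT7.14. Of the peroxisomal genes, which shorten a C24 precursor to DHA, 5 of 6 were called. Acaa1a peaked at ZT11.1 (1.499-fold), Abcd2 at ZT8.49 (4.73-fold) and Scp2 at ZT2.48 (1.22-fold). All 4 tested ceramide synthases of 6 were called, where 72.8% of all tested liver genes were. Cers6, at a mean of 10.4 CPM, peaked at ZT13.0 (1.89-fold). The others had fitted ratios of 1.15-fold (Cers2, which uses the chains that Elovl1 makes, and Cers4) and 1.23-fold (Cers5). The calls of Cers2, Cers4 and Cers5 were lost in the first cycle alone (adjusted p = 0.077, 0.29 and 0.055). That of Cers2 was also lost without TMM (0.065) and on the FPKM scale (0.13 with a pseudocount of 0.1). That of Cers4 was also lost with the replicate block (0.15), with no filter on low counts (0.062), with the cycle as a covariate (0.058) and with ZT as a factor (0.056).

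In cortex 3 of the 9 members that passed the filter were called, where 43.7% of 19564 tested genes were. Scd2 ranged from 1497 to 2089 CPM at ZT0 (median 1612, 12 libraries) and from 1363 to 1610 CPM at ZT15 (median 1405, 6 libraries), and these overlapped. Its fitted log2 ratio was 0.16 ± 0.03 with a peak at ZT3.36 ± 0.81 h (adjusted p = 0.0004). Elovl7 ranged from 19.2 to 46.8 CPM at ZT0 and from 16.3 to 22.1 CPM at ZT15, giving a fitted rhythm of 0.28 ± 0.07 (log2) that peaked at ZT3.66 ± 0.95 h (adjusted p = 0.0039). Elovl4 had its highest group at ZT15, from 60.3 to 77.5 CPM (median 69.3), against 50.5 to 63.5 CPM at ZT6 (median 54.6). The Elovl4 log2 ratio was 0.16 ± 0.05 with a peak at ZT16.5 ± 1.01 h (adjusted p = 0.0097). The ZT6 and ZT15 groups overlapped. The highest Scd2 and Elovl7 values at ZT0 were both those of replicate 1, the library that stood apart, and the fitted ratios were 1.12-fold, 1.22-fold and 1.12-fold. The Elovl4 call was lost in the first cycle alone (adjusted p = 0.080). The median log2 ratio of the 9 members was 0.13, beside 0.19 for all tested genes.

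The cortex count changed with the libraries used. Replicate 9 at ZT9, which lacked cortical neuron markers, had 34.7 CPM of Elovl1 and 12.9 CPM of Fads3, the highest Elovl1 and the lowest Fads3 value among 78 libraries. Without it, a setting chosen after seeing the data, 7 of 9 members were called, since Elovl1, Elovl2, Elovl5 and Fads3 were added (adjusted p = 0.026, 0.047, 0.0073 and 0.011). Without both libraries that stood apart, the same 4 were added (adjusted p = 0.032, 0.030, 0.012 and 0.023). The first cycle alone also gave 7, a different set, with Fads1 and Fads2 called and Elovl2 and Elovl4 not. Replicate 9 at ZT9 is of the second cycle, so that setting leaves it out too. Summed oligodendrocyte markers were 15140 CPM in that library and 9845 CPM in replicate 1 at ZT0, where the other 76 had 3042 to 7182 CPM. Striatal projection neuron markers summed to 3764 and 2132 CPM in the same 2 libraries, against 90.0 to 1096 CPM in the other 76. Of the 8 oligodendrocyte markers, 3 were called rhythmic in cortex, as were all 4 endothelial markers, where 43.7% of all tested genes were. The part of these cells in the members' result was not tested.

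The genes most like Scd2 in cortex were Galnt6, Myo1d, Tmem63a, Fnbp1 and Plekhg3 (r from 0.81 to 0.82 over 78 libraries, among 14038 genes, as a description). Related genes in cortex had small called rhythms too. Insig1 peaked at ZT8.11 (1.43-fold), Elovl6 at ZT20.0 (1.24-fold), Insig2 at ZT20.1 (1.18-fold) and Lpcat3, which places polyunsaturated chains in phospholipids, at ZT4.19 (1.24-fold). Of the 8 lists, regulators had 9 of 12 called, electron donors 4 of 6 and other elongases and desaturases 4 of 7. Acyl-CoA synthetases had 4 of 8 called, elongation partners 3 of 6, peroxisomal genes 2 of 6 and ceramide synthases 2 of 6. Fatty acid synthesis had 1 of 8 called, and the share over all tested cortex genes was 43.7%.

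**Figure D4:**
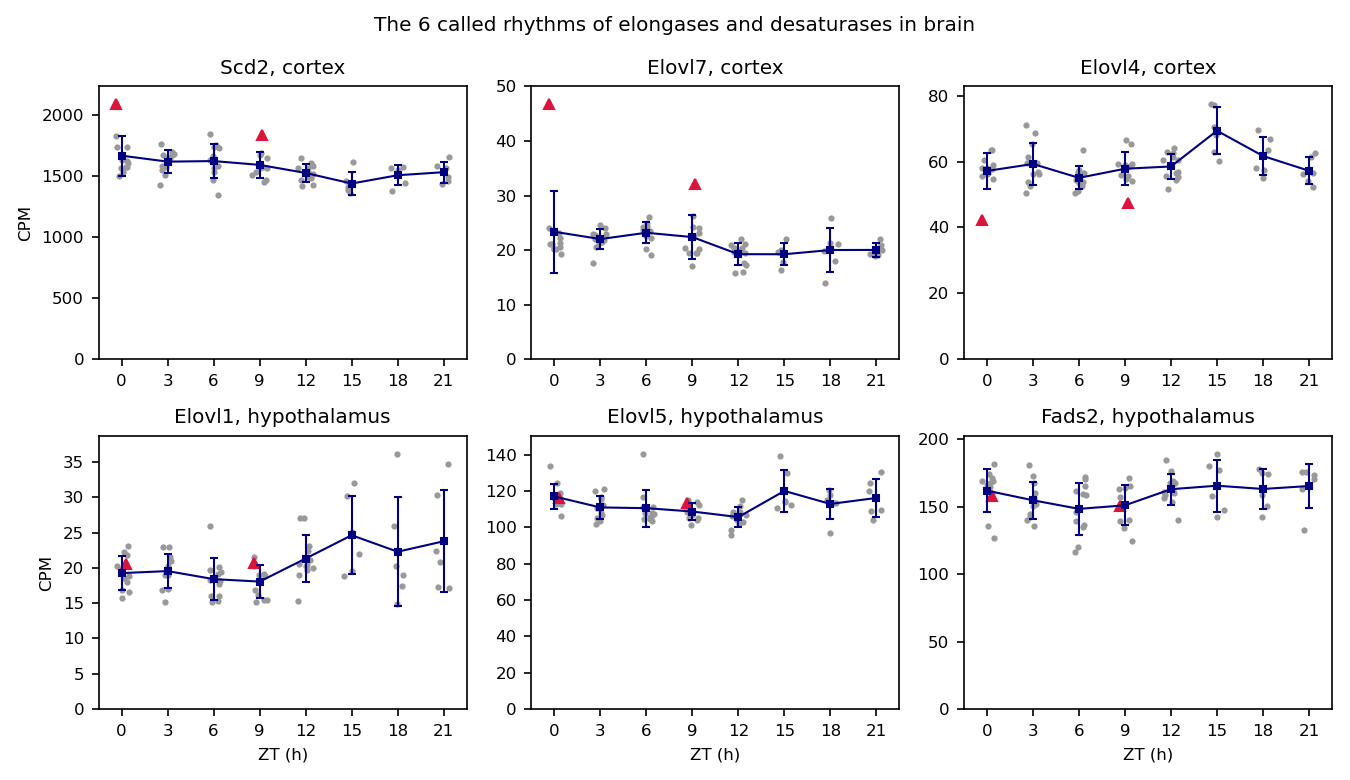
TMM-scaled CPM by ZT for the 6 called rhythms of members in brain, 3 in cortex and 3 in hypothalamus, with single libraries in grey, the mean and SD of each ZT group in blue and libraries that stood apart as red triangles. The axes start at 0, and the fitted ratios are 1.09-fold to 1.31-fold.

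In hypothalamus 3 of 9 members were called, where 24.3% of 20407 tested genes were. Elovl1 ranged from 18.9 to 32.02 CPM at ZT15 (median 23.6, 6 libraries) and from 15.1 to 21.5 CPM at ZT9 (median 18.9, 11 libraries). The ranges overlapped, and the 6 libraries at ZT18 spread from 14.9 to 36.2 CPM. The fitted log2 ratio was 0.39 ± 0.09 (1.31-fold) with a peak at ZT17.5 ± 0.78 h (adjusted p = 0.0016). Elovl5 had a log2 ratio of 0.12 ± 0.03 (peak ZT21.0 ± 1.08 h, adjusted p = 0.017) and Fads2 of 0.16 ± 0.05 (peak ZT18.2 ± 1.05 h, adjusted p = 0.034). Both were lost without TMM (adjusted p = 0.086 and 0.16) and all 3 in the first cycle alone (Elovl1 0.10, Elovl5 0.29, Fads2 0.19). With the replicate number as a block 5 members were called, Elovl2 and Fads1 being added (adjusted p = 0.035 and 0.045).

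Markers of other cells were called rhythmic in hypothalamus as well, where 24.3% of all tested genes were. Of the 5 striatal projection neuron markers 4 were called there, with fitted peaks from ZT16.2 to ZT16.8, and their sum ranged from 45.0 to 410 CPM over 75 libraries. Of the 8 oligodendrocyte markers 2 were called, 1 with a peak from ZT0 to ZT12 and 1 with a later peak. The sum of the 8 had a median of 7592 CPM at ZT15 and of 6219 CPM at ZT9 (5647 to 14738 and 5121 to 7452). At ZT18, near the Elovl1 peak, the median was 6490 CPM, against 6800 at ZT3, 6498 at ZT12 and 7865 at ZT21. All 4 endothelial markers were called, 3 of them with a peak after ZT12. The part of these cells in the Elovl1 rhythm was not tested. The genes most like Elovl1 in hypothalamus were Apod (r = 0.93), Cers2 (0.90), Rhog (0.90), Hopx (0.88) and Car14 (0.88), over 77 libraries and among 14583 genes, as a description. Of the 8 lists, the acyl-CoA synthetases and the regulators had 4 called each, of 8 and 12, against 24.3% of all tested genes. Cers5 peaked at ZT10.3 (1.10-fold), Insig1 at ZT6.56 (1.22-fold) and Acsl6, which serves DHA uptake in neurons, at ZT5.87 (1.12-fold), the last of which was lost in the first cycle alone (adjusted p = 0.44).

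In striatum 0 of 9 members were called, where 5.7% of 21637 tested genes were. By edgeR 0 members had an unadjusted p under 0.05, and DESeq2 called 0 as well. The smallest p was that of Elovl5 (log2 0.15 ± 0.06, adjusted p = 0.34). Among the genes of the 8 related lists in striatum, the smallest adjusted p was 0.051 (Nr1h3, named after its value was seen). Fads2 had 2 libraries at ZT15, with 126 CPM in the lower, above the highest of 6 at ZT21 (124 CPM), and 24.8% of all tested genes had highest and lowest groups without overlap here. Genes most like Elovl5 in striatum were Lap3, Pip4k2a, Tmeff2, Lpar1 and Rftn2 (r from 0.68 to 0.75 over 60 libraries, among 14312 genes, as a description).

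Rhythms differed between liver and brain for most members with counts in both. Leaving aside Elovl3 and Elovl4, which are near 0 in one of the tissues, the tissue by time test called 8 of 8 members between cortex and liver (54.9% of all genes), 6 of 8 between hypothalamus and liver (53.1%) and 6 of 8 between striatum and liver (36.7%). Elovl1, Elovl5, Elovl7, Fads2, Fads3 and Scd2 were called against all 3 brain regions. Elovl5 had the smallest adjusted p in each, 7.5e-20 against cortex, 2.2e-15 against striatum and 1.5e-23 against hypothalamus. The 3 comparisons share the liver libraries. With tissues of the same mouse paired by limma on log2 CPM, Elovl2 between hypothalamus and liver went from an adjusted p of 0.081 to 0.012. Fads1 was called only against cortex (adjusted p = 0.0096), and that call was lost without TMM (adjusted p = 0.23).

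Between brain regions 0 of 9 members differed in rhythm in each of the 3 comparisons. There 6.3% of genes were called between cortex and hypothalamus, 0.51% between cortex and striatum and 0.313% between striatum and hypothalamus. With no adjustment, at p under 0.05, the edgeR test had 0 members between cortex and striatum, 4 between cortex and hypothalamus and 1 between hypothalamus and striatum, and with mice paired 0 members were called in each. Across all genes the edgeR fit called 96 between cortex and striatum and 60 between striatum and hypothalamus. The paired fit, which used limma on log2 CPM differences and 118 libraries, called 8 and 0.

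Several members followed the oligodendrocyte markers from library to library in brain. Correlations of log2 CPM with the summed CPM of 8 oligodendrocyte and 6 astrocyte markers were computed for 9 members in 3 regions, 54 relations in all, with two-sided permutation tests and Benjamini-Hochberg adjustment over the 54. Elovl1 had r = 0.75 in cortex, 0.89 in striatum and 0.77 in hypothalamus, with Spearman rho = 0.55, 0.89 and 0.70 (adjusted permutation p = 4.5e-05 for each, the smallest that 100000 permutations can give after adjustment). Without the 2 libraries farthest in marker sum r was 0.58, 0.87 and 0.72. Elovl5 had r = 0.81, 0.57 and 0.59 in the same order, with rho = 0.66, 0.49 and 0.45 (adjusted permutation p for r at most 7.2e-05, for rho at most 0.00022), and r = 0.61, 0.52 and 0.50 without the 2 farthest. Elovl7 had r = 0.69, 0.50 and 0.59 with rho = 0.50, 0.51 and 0.50 (adjusted permutation p for r at most 9.5e-05, for rho at most 7.2e-05), and r = 0.54, 0.49 and 0.52 without the 2 farthest. With the astrocyte sum in hypothalamus, Elovl7 had r = 0.69 and rho = 0.64 (adjusted permutation p = 4.5e-05 for both, r = 0.74 without the 2 farthest). In cortex and striatum it had r = -0.19 and -0.12 (adjusted permutation p = 0.14 and 0.43). Elovl5 with that sum had r = -0.32, 0.02 and 0.38 in cortex, striatum and hypothalamus, with rho = 0.25, 0.05 and 0.26 (adjusted permutation p for r = 0.017, 0.87 and 0.0018). Values of the same library share its scaling.

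**Figure D5:**
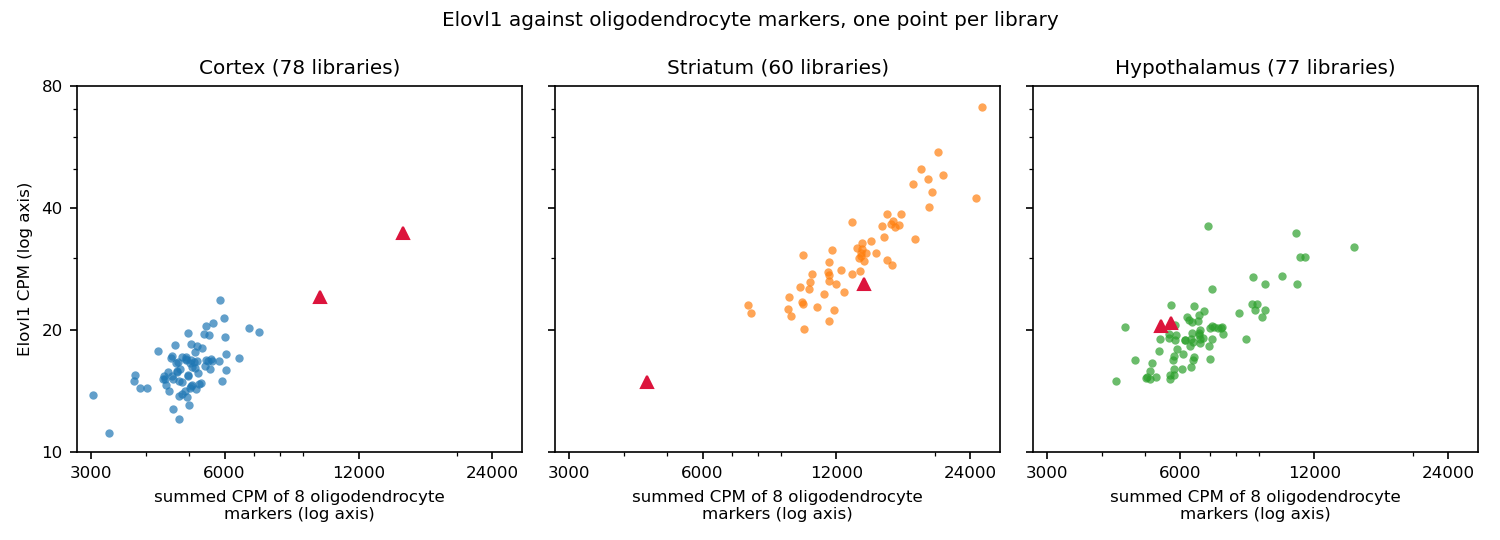
Elovl1 CPM against the summed CPM of 8 oligodendrocyte markers in each library of cortex, striatum and hypothalamus, both on log axes, with libraries that stood apart as red triangles. Pearson r of the log2 values is 0.75 in cortex, 0.89 in striatum and 0.77 in hypothalamus, and 0.58, 0.89 and 0.78 without those libraries.

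Scd2 had other values by region. With the oligodendrocyte sum it had r = 0.68 and rho = 0.68 in cortex (adjusted permutation p = 4.5e-05 for both, r = 0.63 without the 2 farthest) and r = -0.03 and rho = -0.09 in striatum (adjusted permutation p = 0.84 and 0.56). In hypothalamus it had r = 0.16 and rho = 0.17 with that sum (adjusted permutation p = 0.21 and 0.20). With the astrocyte sum it had r = 0.70 and rho = 0.71 in hypothalamus (adjusted permutation p = 4.5e-05 for both, r = 0.74 without the 2 farthest). With the astrocyte sum in cortex r was 0.10 and rho 0.35 (adjusted permutation p = 0.43 and 0.0042). In striatum r was 0.19 and rho 0.17 (adjusted permutation p = 0.20 and 0.27). The difference between regions was not tested. Elovl2 was positive with the astrocyte sum in all 3 regions, with r = 0.38 in cortex, 0.51 in striatum and 0.28 in hypothalamus and rho = 0.36, 0.65 and 0.30 (adjusted permutation p for r = 0.0017, 0.00014 and 0.025), and r = 0.44, 0.52 and 0.29 without the 2 farthest. For Fads3 and the oligodendrocyte sum in cortex r was -0.71 and rho -0.24 (adjusted permutation p = 7.2e-05 and 0.063), and r was -0.32 without the 2 libraries farthest in marker sum, which are those that stood apart, so the size of that relation rests on them.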

How the data were processed

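Libraries were made from total RNA of 4 tissues and sequenced on Illumina instruments. The deposited files hold gene counts, which the authors made with STAR 2.7.3a, HTSeq 0.10.0 and GRCm38 or mm10 named per the submitters' processing notes, without roles. The authors also deposited FPKM, which equal count over library total times a constant per gene in the genes checked (tolerance 0.001). The sources used here state neither strand use nor annotation release.

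Counts were filtered by expression, scaled by TMM and fitted per tissue with edgeR 4.0.16 (quasi-likelihood, cosine and sine of 24 h). Calls use an adjusted p of 0.05 over all tested genes. A step of this fit was tested on simulated data. Tissue pairs were compared in 1 fit per pair. Of 79 mouse codes in the labels, 58 occur in 4 tissues, 19 in 3, 1 in 2 and 1 (CR88, in striatum) in 1. The last was not paired, although it may stand for CRM88 of the other tissues. Same-mouse deviations had median correlations from -0.0018 to 0.12, and the paired fit used limma 3.58.1 on differences of log2 CPM. DESeq2 1.42.0, FPKM with limma (pseudocounts 0.1 and 1), other scalings, no filter, single cycles and left-out libraries were alternatives. Levels use FPKM medians. Replicates of a ZT group are different mice, per the mouse codes in the labels.

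The 10 members and 23 lists were chosen with earlier results of these data known. Named were all members, up to 4 called genes a list in liver and up to 3 in each brain region by smallest p, and the 5 genes most correlated with 1 member per tissue. Some items under these rules are not reported here.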

Additional observations from a re-analysis of the deposited data

Results flagged for a closer look

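In 126 groups of 6 to 10 libraries (1 member in 1 tissue at 1 ZT), 18 held a library far from the others by Dixon's criterion, of which chance alone gives about 1 in 20 groups. Elovl1 in cortex replicate 5 at ZT21 stood at 20.4 CPM, above the 15.4 to 17.1 CPM of the others. Elovl2 in cortex replicate 5 at ZT21 stood at 20.5 CPM, above the 15.9 to 17.4 CPM of the others. Fads1 in cortex replicate 5 at ZT18 stood at 223 CPM, above the 206 to 210 CPM of the others. Fads3 in cortex replicate 4 at ZT15 stood at 28.5 CPM, below the 31.1 to 32.6 CPM of the others. Elovl2 in striatum replicate 3 at ZT9 stood at 18.5 CPM, above the 12.96 to 15.1 CPM of the others. Elovl2 in striatum replicate 3 at ZT21 stood at 40.5 CPM, above the 11.9 to 17.2 CPM of the others. Elovl7 in striatum replicate 4 at ZT0 stood at 64.2 CPM, above the 24.1 to 43.4 CPM of the others. Fads1 in striatum replicate 3 at ZT21 stood at 161 CPM, below the 204 to 218 CPM of the others. Fads3 in striatum replicate 7 at ZT3 stood at 34.9 CPM, above the 16.9 to 20.6 CPM of the others. Elovl2 in hypothalamus replicate 2 at ZT21 stood at 10.1 CPM, below the 12.5 to 13.2 CPM of the others. Elovl5 in hypothalamus replicate 1 at ZT18 stood at 96.9 CPM, below the 113 to 121 CPM of the others. Fads2 in hypothalamus replicate 1 at ZT21 stood at 133 CPM, below the 163 to 176 CPM of the others. Elovl1 in liver replicate 1 at ZT15 stood at 66.7 CPM, above the 49.9 to 54.6 CPM of the others. Elovl2 in liver replicate 3 at ZT21 stood at 833 CPM, above the 415 to 489 CPM of the others. Elovl5 in liver replicate 2 at ZT15 stood at 293 CPM, above the 204 to 219 CPM of the others. Elovl7 in liver replicate 3 at ZT15 stood at 1.26 CPM, above the 0.418 to 0.727 CPM of the others. Fads1 in liver replicate 3 at ZT21 stood at 743 CPM, above the 463 to 547 CPM of the others. Scd2 in liver replicate 4 at ZT18 stood at 20.5 CPM, above the 7.02 to 11.8 CPM of the others. Striatum replicate 3 at ZT21, which held cerebellar markers at 2724 CPM, gave 2 of these values, cortex replicate 5 at ZT21 gave 2 and liver replicate 3 at ZT21 gave 2. Liver replicate 4 at ZT18 is the library with 83.8% of its counts in 10 genes. Without the libraries that stood apart, which include striatum replicate 3 at ZT21 and liver replicate 4 at ZT18, 0 members were called rhythmic in striatum and 9 in liver, as with them.

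Between cortex and liver, 8 members had rhythms that differed by the tissue by time term of edgeR, with adjusted p-values of Elovl1 9.8e-09, Fads1 0.0096, Elovl2 0.0029, Elovl7 3.3e-06, Fads3 1.2e-11, Fads2 1.4e-10, Scd2 9.6e-08 and Elovl5 7.5e-20. Between striatum and liver, 6 members had rhythms that differed by the tissue by time term of edgeR, with adjusted p-values of Elovl1 4.6e-07, Elovl7 0.00057, Fads3 0.00031, Fads2 0.00036, Scd2 3.7e-06 and Elovl5 2.2e-15. Between hypothalamus and liver, 6 members had rhythms that differed by the tissue by time term of edgeR, with adjusted p-values of Elovl1 2.8e-08, Elovl7 0.00028, Fads3 1.6e-12, Fads2 1.6e-09, Scd2 9.1e-08 and Elovl5 1.5e-23. These comparisons share the liver libraries. The same term had an adjusted p of 0.038 for Elovl4 between cortex and liver, with 40 counts of Elovl4 in all liver libraries (0.067 with no filter on low counts), and of 0.0036 for Elovl3 between hypothalamus and liver, with 25 counts of Elovl3 in all hypothalamus libraries. At so few counts neither value compares 2 rhythms.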

How the results depend on the processing

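Over all alternatives run for the named genes, 2030 values kept direction and side of the threshold, 88 lost their call, 31 gained it and 1 reversed. The one that reversed was Elovl4 between striatum and hypothalamus without TMM (log2 0.0060), and the cause was not tested. Called members in cortex numbered 7 in the first cycle alone, 7 without the libraries that stood apart and 4 or 7 without replicate 1 at ZT0 or replicate 9 at ZT9 alone (chosen after seeing the data). In hypothalamus they numbered 1 without TMM, 5 with the replicate block, 0 in the first cycle alone, and 1 and 1 on the FPKM scale with either pseudocount. In liver they numbered 8 or 9 under each alternative run and in striatum 0. The first cycle alone, with fewer samples, called 326 genes in striatum and 2155 in hypothalamus. Leaving out single libraries at ZT15 or ZT18 gave 1214 to 1570 called genes in striatum. Rhythm differences between cortex and striatum numbered 8 with the mouse code as replicate block and 319 with no filter, and between striatum and hypothalamus 0 with that block, 14 without the libraries that stood apart and 289 with no filter. With no filter, where more genes are tested, levels differed for 28943, 28459 and 29278 genes between liver and cortex, striatum and hypothalamus. Cycle differences in cortex numbered 3076 without the libraries that stood apart. In striatum they numbered 1 without TMM, 0 with no filter and 0 without the libraries that stood apart. Other causes were not tested.

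Replicate numbers in the labels recur across ZT groups. Same-numbered libraries correlated with medians of 0.12, 0.10, 0.17 and 0.0062 in cortex, striatum, hypothalamus and liver. Libraries of other numbers had medians of -0.00077, -0.0068, -0.023 and -0.0071 in that order. Of the same-numbered pairs 33.9% to 55.8% were over 0.1. The numbers were not taken as a pairing in the main fit, and what the same-numbered libraries share was not tested. The replicate block changed no member's call in cortex, striatum or liver. In hypothalamus it added calls of Elovl2 and Fads1, and the count over all genes went from 4967 to 7138. Depth limits Elovl7 in liver, with at most 40 counts in a library, and Elovl3 and Elovl4 where near 0.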
